A study of Mus musculus with 6 samples.

Results

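The 10 genes examined here carry iron into the cell, store it, release it and sense it, and were followed in the substantia nigra (SN) of MitoParks and littermate controls. They were picked by symbol, as 10 of the 24054 genes in the count table, and are Fth1 and Ftl1 (storage), Tfrc, Trf and Slc11a2 (uptake), Slc40a1 and Cp (export), Aco1 and Ireb2 (regulation) and Slc25a37 (iron import into mitochondria). All 10 were counted in every mouse and passed the filter on low counts. None of the 10 passed the test between MitoParks and littermate controls. The spread from mouse to mouse was large for Trf, Fth1 and Slc40a1, and in these mice it went with the level of oligodendrocyte genes, as it did for many other genes.

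Poly-A RNA of the SN was sequenced from 3 MitoParks and 3 littermate controls, untreated, on a C57BL/6 background and 16 to 17 weeks old. The labels give the tissue as brain, and the study's methods give it as the SN. MitoParks carry Cre at 1 copy of the dopamine transporter gene and 2 floxed copies of Tfam, the mitochondrial transcription factor (Dat+/Cre: Tfam LoxP/LoxP). Littermate controls carry 1 floxed Tfam copy and no Cre (Tfam+/LoxP: Dat+/+), and came from MitoPark or parental strain litters, so both groups carry a floxed allele. Tfam is removed only from cells that express the dopamine transporter, while the RNA came from all cells of the dissected SN.

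Cells take up iron bound to transferrin (Trf) through the transferrin receptor (Tfrc), and the metal transporter DMT1 (Slc11a2) moves it from the endosome to the cytosol. Ferritin, a shell of heavy (Fth1) and light (Ftl1) chains, stores iron, and ferroportin (Slc40a1) exports it with the help of the ferroxidase ceruloplasmin (Cp). The iron regulatory proteins IRP1 (Aco1) and IRP2 (Ireb2) bind hairpins in mRNAs, called iron-responsive elements (IREs), when iron is low. A hairpin in the 5′ UTR blocks translation, and hairpins in the 3′ UTR of Tfrc protect its mRNA from decay, so that counts of mRNA do not give the protein levels of ferritin and ferroportin. In the SN, iron is abundant, and in the brain oligodendrocytes are known for high levels of transferrin and ferritin.

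The IREs that a pattern search found in 4 members are shown, because IREs are what links these mRNAs to IRP1 and IRP2. Each window of 29 bases comes from a GENCODE M21 transcript on the GRCm38 build, is read 5′ to 3′ in the sense of the transcript and lies in a single exon, with the 6-base loop in capitals.
Fth1, 5′ UTR, chr19:9982732-9982760, plus strand: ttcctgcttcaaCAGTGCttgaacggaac
Ftl1, 5′ UTR, chr7:45459779-45459807, minus strand: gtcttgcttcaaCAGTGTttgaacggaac
Slc40a1, 5′ UTR, chr1:45925465-45925493, minus strand: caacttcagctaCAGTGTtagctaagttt
Tfrc, 3′ UTR, number 1, chr16:32631219-32631247, plus strand: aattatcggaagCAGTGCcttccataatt
Tfrc, 3′ UTR, number 2, chr16:32631598-32631626, plus strand: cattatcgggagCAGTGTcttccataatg
Tfrc, 3′ UTR, number 3, chr16:32631663-32631691, plus strand: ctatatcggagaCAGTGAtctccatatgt
Tfrc, 3′ UTR, number 4, chr16:32631710-32631738, plus strand: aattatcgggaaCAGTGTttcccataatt

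The pattern searched was a bulged C, 5 bases of stem, the loop CAGTGN and 5 bases that pair with the stem, G with T included, on the transcript's own strand and not on the other. It was found in the 5′ UTR of 3 members and in the 3′ UTR of 1 member. Among 1 transcript each of 21877 coding genes, 0.096% held it in the 5′ UTR, 0.475% in the 3′ UTR and 0.571% in either. The UTRs of the other 6 members did not hold these letters in the transcript chosen for each gene. IREs that depart from the pattern would be missed in any member, so those shown for Tfrc need not be all of its IREs. On the same build, these genes lie at chr9:103204001-103230444 (Trf), chr15:100387898-100425072 (Slc11a2), chr3:19957054-20009145 (Cp), chr4:40143081-40198338 (Aco1), chr9:54863789-54912530 (Ireb2) and chr14:69241848-69285112 (Slc25a37). Slc11a2 mRNAs exist in forms with and without an IRE, and counts per gene do not separate them.

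The libraries held between 8140780 and 10528600 expected counts, and 3 counts corresponded to between 0.285 and 0.366 TMM-normalized CPM, the unit in which counts are scaled to a common library size. Tfam was measured at 40.3, 44.4 and 45.5 CPM in littermate controls 1, 2 and 3, against 32.7, 33.1 and 33.2 CPM in MitoParks 1, 2 and 3, so that all MitoParks were lower (log2 fold change -0.40, unadjusted p = 0.00565, Benjamini-Hochberg adjusted p = 0.999, quasi-likelihood test of edgeR). Of 6 defining dopaminergic genes, 5 were counted in every library, and Pitx3, with 0 counts in MitoPark 1, was at 5 counts or fewer in all mice but littermate control 3. Their summed level ranged from 322 to 1026 CPM in littermate controls and from 190 to 338 CPM in MitoParks, with all 6 genes at a lower fitted level in MitoParks and 1 of them, Slc6a3, at an unadjusted p below 0.05. Littermate control 3 stood apart, with 1026 CPM of these genes against 322 and 354 CPM in the other littermate controls, and with the highest sum of oligodendrocyte genes. In bulk tissue, fewer cells of a type and less RNA per cell cannot be told apart. Xist was near 0 and Y-linked genes were present in 1 mouse of each group, littermate control 1 and MitoPark 2, and the sex of each mouse is not in the labels. The labels do not say whether replicates came from separate litters, and p-values measure the spread between these mice.

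The counts of members were read against those of all genes. Of 14568 genes tested, 84 passed an unadjusted p below 0.05 with a fold change above 1.5 (0.577%), and 0 of the 10 members did. Without the condition on the fold change, 161 genes (1.11%) and 0 members passed, and the likelihood ratio test of edgeR, the Wald test of DESeq2 and limma-voom gave 0 members as well. After Benjamini-Hochberg adjustment of the edgeR quasi-likelihood test, 0 genes (0%) and 0 members were below 0.05, and each member had an adjusted p of 0.999. The 3 MitoParks were all above or all below the 3 littermate controls for 686 genes (4.71%) and for 0 members. Of the members, 6 were higher and 4 lower in MitoParks, with a median log2 fold change of 0.095, beside -0.005 over all genes tested, of which 48.6% were higher.

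**Figure D1:**
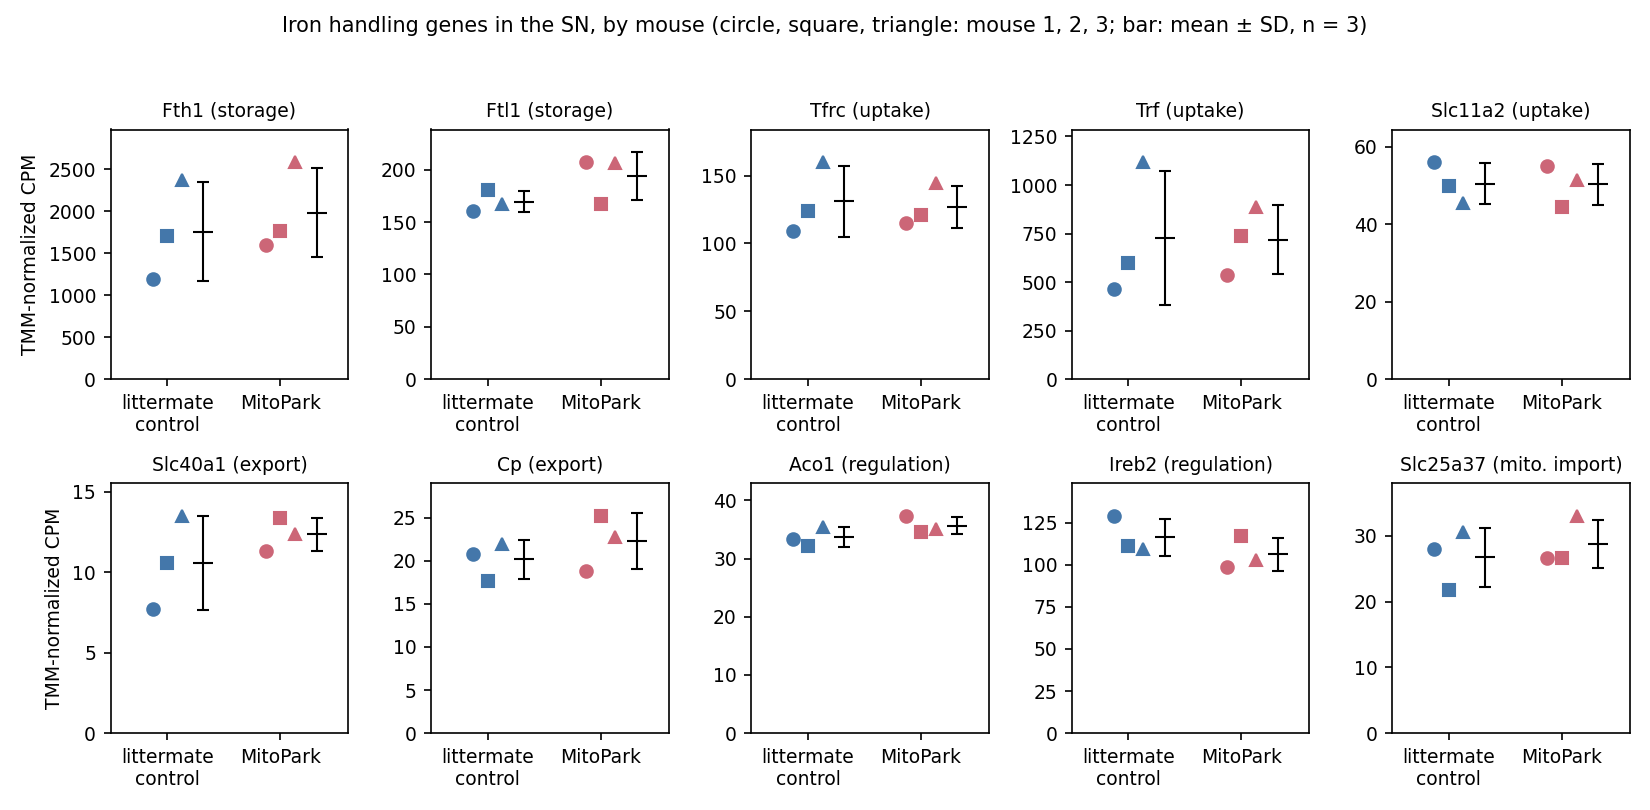
TMM-normalized CPM (y axis, from 0) of the 10 iron members in each of 3 littermate controls (blue) and 3 MitoParks (red), with bars for the mean ± SD. The groups overlap in every panel, and the widest spread between littermate controls, relative to the mean, is that of Trf, from 463 to 1118 CPM.

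The storage genes were measured well above the detection limit in all mice. Fth1, the heavy chain of ferritin that oxidizes iron on entry, was measured at 1195, 1699 and 2375 CPM in littermate controls 1, 2 and 3, against 1592, 1769 and 2585 CPM in MitoParks 1, 2 and 3. Mouse 3 was the highest in both groups, and the groups overlapped over most of their range. The means were 1757 ± 592 CPM in littermate controls and 1982 ± 530 CPM in MitoParks (SD, n = 3). The fold change was 1.13, with a 95% interval from 0.754 to 1.69, and the quasi-likelihood test of edgeR gave an unadjusted p of 0.517. Leaving out littermate control 3 gave Fth1 a log2 fold change of 0.45, and without MitoPark 3 it was -0.064.

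Ftl1, the light chain that helps iron settle in the ferritin core, was steadier between mice. It was measured at 161, 181 and 167 CPM in littermate controls 1, 2 and 3, against 207, 167 and 207 CPM in MitoParks 1, 2 and 3. MitoParks 1 and 3 were above every littermate control, and MitoPark 2 was within the range of littermate controls. The means were 169.5 ± 10.2 CPM and 194 ± 22.8 CPM (SD, n = 3), a fold change of 1.14 with a 95% interval from 0.952 to 1.37 and an unadjusted p of 0.133 (edgeR's quasi-likelihood test), the smallest among the 10 members. The exact permutation test over the 6 mice gave p = 0.2, where the smallest value it can give is 0.1. Ftl1 was also the member that passed an unadjusted threshold of 0.05 when a mouse, MitoPark 2, was left out (log2 fold change 0.30, unadjusted p = 0.0215 from the quasi-likelihood test of edgeR). Its Benjamini-Hochberg adjusted p in that fit was 0.963. Leaving out MitoPark 2 put 657 of 14634 genes below the same threshold, against 161 of 14568 with all mice.

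Since ferritin is assembled from both chains, their balance was compared within each mouse. The ratio of Fth1 to Ftl1 CPM was 7.43, 9.40 and 14.2 in littermate controls 1, 2 and 3, against 7.68, 10.6 and 12.5 in MitoParks 1, 2 and 3. It was lowest in mouse 1 and highest in mouse 3 of both groups. The groups differed by 0.010 on the log2 scale (exact two-sided permutation test, p = 1), and this difference went from -0.20 to 0.27 with 1 mouse left out in turn, the lowest without littermate control 1 and the highest without littermate control 3.

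The uptake genes had fold changes close to 1. Trf, the iron carrier transferrin, was measured at 463, 600 and 1118 CPM in littermate controls 1, 2 and 3, against 535, 735 and 887 CPM in MitoParks 1, 2 and 3. All MitoParks lay inside the range of littermate controls, which was set by a single high mouse. The means were 727 ± 346 CPM and 719 ± 176 CPM (SD, n = 3), a fold change of 0.989 with a 95% interval from 0.615 to 1.59 (unadjusted p = 0.959, edgeR's quasi-likelihood test). Leaving out littermate control 3 moved Trf to a log2 fold change of 0.44 (unadjusted p = 0.0609, edgeR's quasi-likelihood test), and it did not pass the threshold with any of the 6 mice left out.

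Tfrc, the transferrin receptor, was measured at 109, 124 and 160 CPM in littermate controls 1, 2 and 3, against 115, 121 and 144 CPM in MitoParks 1, 2 and 3. As for Trf, all 3 MitoParks lay within the range of littermate controls. The means were 131 ± 26.1 CPM and 127 ± 15.4 CPM (SD, n = 3), with a fold change of 0.967 and a 95% interval from 0.761 to 1.23 (unadjusted p = 0.763, edgeR's quasi-likelihood test). Without littermate control 3, the log2 fold change was 0.12.

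Slc11a2, which encodes DMT1, was measured at 56.0, 49.9 and 45.5 CPM in littermate controls 1, 2 and 3, against 55.0, 44.4 and 51.4 CPM in MitoParks 1, 2 and 3. Its group means were nearly equal, at 50.5 ± 5.26 CPM and 50.2 ± 5.38 CPM (SD, n = 3). The 95% interval of its fold change of 0.995 went from 0.813 to 1.22 (unadjusted p = 0.958, edgeR's quasi-likelihood test).

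Receptor and store were also set against each other, at the level of mRNA only. The IREs of Tfrc act on its mRNA level, while that of Fth1 acts on translation. The ratio therefore does not show the control of Fth1 by its IRE. The ratio of Tfrc to Fth1 CPM was 0.091, 0.073 and 0.067 in littermate controls 1, 2 and 3, against 0.072, 0.068 and 0.056 in MitoParks 1, 2 and 3. Littermate control 3 lay within the range of MitoParks, littermate control 2 lay just above it, and littermate control 1 was the highest of all mice. The log2 difference was -0.23 (exact two-sided permutation test, p = 0.4), and leaving out 1 mouse at a time gave values from -0.33 to -0.11.

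The export genes had fewer counts. Slc40a1, which encodes ferroportin, the exporter of iron from cells, was measured at 7.68, 10.5 and 13.5 CPM in littermate controls 1, 2 and 3, against 11.3, 13.3 and 12.4 CPM in MitoParks 1, 2 and 3. Littermate control 1 was the lowest mouse and littermate control 3 the highest. The means were 10.6 ± 2.90 CPM and 12.3 ± 1.01 CPM (SD, n = 3), from 69 to 138 counts a mouse. The fold change of 1.17 had a 95% interval from 0.839 to 1.62 (unadjusted p = 0.321, edgeR's quasi-likelihood test). The log2 fold change was 0.22 with all mice, and 0.44 without littermate control 3 and 0.05 without littermate control 1.

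Cp, ceruloplasmin, oxidizes iron as it leaves the cell. It was measured at 20.8, 17.7 and 22.0 CPM in littermate controls 1, 2 and 3, against 18.8, 25.2 and 22.8 CPM in MitoParks 1, 2 and 3. MitoPark 1 was among the littermate controls, and the other MitoParks were above them. The means were 20.2 ± 2.24 CPM and 22.2 ± 3.24 CPM (SD, n = 3), with a fold change of 1.11 and a 95% interval from 0.874 to 1.40 (unadjusted p = 0.361, edgeR's quasi-likelihood test).

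The genes of both IRE-binding proteins were close to level between the groups. Aco1, whose protein is IRP1 when it lacks its iron-sulfur cluster and cytosolic aconitase when it holds it, was measured at 33.4, 32.1 and 35.5 CPM in littermate controls 1, 2 and 3, against 37.3, 34.6 and 35.0 CPM in MitoParks 1, 2 and 3. It was the steadiest of the members, with a coefficient of variation (CV, SD over mean) of 5.06% in littermate controls and 4.09% in MitoParks. Its fold change was 1.06, with a 95% interval from 0.890 to 1.26 (unadjusted p = 0.479, edgeR's quasi-likelihood test). Ireb2, whose protein IRP2 is degraded when iron is plentiful, was measured at 129, 111 and 109 CPM in littermate controls 1, 2 and 3, against 98.7, 117 and 103 CPM in MitoParks 1, 2 and 3. MitoParks 1 and 3 were below every littermate control, and MitoPark 2 was among them. The means were 116 ± 10.9 CPM and 106 ± 9.78 CPM (SD, n = 3), a fold change of 0.913 with a 95% interval from 0.764 to 1.09 (unadjusted p = 0.278, edgeR's quasi-likelihood test).

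Slc25a37, mitoferrin 1, brings iron into mitochondria for the making of haem and iron-sulfur clusters. It was measured at 28.0, 21.8 and 30.5 CPM in littermate controls 1, 2 and 3, against 26.7, 26.7 and 33.0 CPM in MitoParks 1, 2 and 3. The groups overlapped, with means of 26.7 ± 4.50 CPM and 28.8 ± 3.64 CPM (SD, n = 3). The fold change was 1.08, with a 95% interval from 0.843 to 1.38 (unadjusted p = 0.511, edgeR's quasi-likelihood test).

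The width of the intervals sets how large a difference these 6 mice could show. For 7 members, namely Ftl1, Tfrc, Slc11a2, Cp, Aco1, Ireb2 and Slc25a37, the whole 95% interval lay within a 1.5-fold change in either direction. For Fth1, Trf and Slc40a1 it went beyond 1.5-fold higher, and for Trf also beyond 1.5-fold lower. These 3 were also the members with a CV above 20% in littermate controls, at 33.7% for Fth1, 47.6% for Trf and 27.5% for Slc40a1. Counting error was at most 0.965% of the level for Fth1, 1.55% for Trf and 12.0% for Slc40a1 in any mouse. For Fth1 and Trf, nearly all of the spread was therefore beyond counting error. Differences between animals and between their dissections or libraries cannot be told apart in it. Intervals of counting error cover sampling of reads only.

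**Figure D2:**
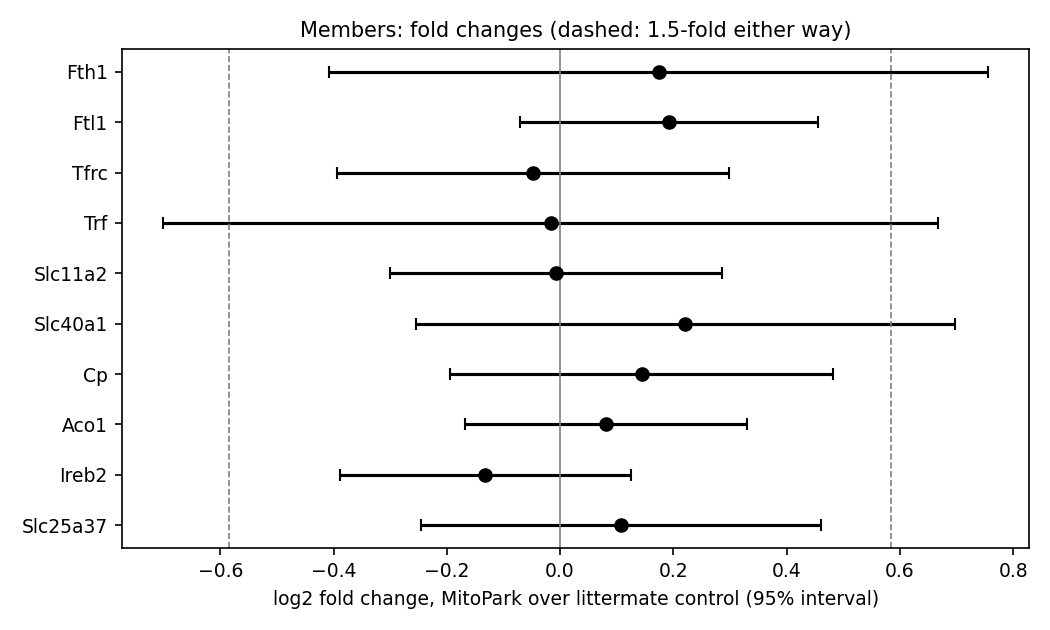
Log2 fold change of each iron member, MitoPark over littermate control (x axis), with its 95% interval as a bar; dashed lines mark a 1.5-fold change either way. All 10 intervals include 0, and those of Fth1, Trf and Slc40a1 cross a dashed line.

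To order the members by level, CPM was divided by transcript length. Per kilobase, Fth1 was the highest, at 1891 ± 637 CPM per kb in littermate controls and 2134 ± 570 in MitoParks (SD, n = 3), followed by Trf at 283 ± 134 and 280 ± 68.6 CPM per kb and by Ftl1 at 175 ± 10.5 and 200.2 ± 23.6 CPM per kb. Trf and Ftl1 overlapped in both groups, so their order was not set. Then came Tfrc (26.8 ± 5.33 and 25.9 ± 3.14 CPM per kb), Ireb2 (20.2 ± 1.89 and 18.4 ± 1.70) and Slc11a2 (16.7 ± 1.74 and 16.6 ± 1.78), of which Tfrc and Ireb2 overlapped in littermate controls and Ireb2 and Slc11a2 in MitoParks. The lowest were Aco1 (8.79 ± 0.444 and 9.30 ± 0.381 CPM per kb), Slc25a37 (6.40 ± 1.08 and 6.90 ± 0.872), Cp (5.0 ± 0.555 and 5.52 ± 0.803) and Slc40a1 (3.14 ± 0.861 and 3.66 ± 0.298), with an overlap of Slc25a37 and Cp in littermate controls. The order by group mean was the same in both groups. It was also the same with the longest coding transcript of each gene, where Fth1 was at 1176 CPM per kb and Slc11a2 at 11.4 CPM per kb in littermate controls.

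Where the spread of Fth1, Trf and Slc40a1 lay was then compared with the cell type markers. The summed level of 8 oligodendrocyte genes, Mbp, Mog, Mag and Cnp among them, which make and maintain myelin, was 7178, 10098 and 18952 CPM in littermate controls 1, 2 and 3, against 9804, 12721 and 16004 CPM in MitoParks 1, 2 and 3. The groups overlapped, and 6 of the 8 genes were higher in MitoParks and 0 passed an unadjusted threshold of 0.05 in the quasi-likelihood test of edgeR. Ordered by this sum, the 6 mice were in the same order as by Trf. The astrocyte water channel gene Aqp4, at 161, 196 and 409 CPM in littermate controls 1, 2 and 3 against 164, 361 and 392 CPM in MitoParks 1, 2 and 3, put the mice in that order too. Of 6 astrocyte genes, only Aqp4 kept that order. Slc1a3 ran nearly the other way, from 681 CPM in littermate control 1 down to 437 CPM in littermate control 3. Gfap, Aldh1l1, Slc1a2 and Gja1 were each higher in littermate control 3 than in littermate control 1, without keeping the full order. Littermate control 3 was also the highest in dopaminergic genes.

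On the log2 scale, Trf went with the oligodendrocyte sum with a Pearson r of 0.988 (exact permutation p = 0.00139) and a Spearman rho of 1 (exact permutation p = 0.00278) over the 6 mice. With the group means taken out, r was 0.996, and without littermate controls 1 and 3, the mice farthest from the median of the marker sum, it was 0.985. The slope was 0.92, close to a change in proportion to the markers. Fth1 had r = 0.955 (exact permutation p = 0.00694, rho = 0.943 with p = 0.0167, slope 0.76) and Tfrc had r = 0.941 (exact permutation p = 0.00417, rho = 0.943 with p = 0.0167, slope 0.38). Without littermate controls 1 and 3, r was 0.929 for Fth1 and 0.864 for Tfrc. As the slope was smaller for Tfrc than for Fth1, the fitted ratio of Tfrc to Fth1 went down as the marker sum rose. The part of this in the group difference of that ratio was not tested. Slc40a1 had r = 0.875 (exact permutation p = 0.0139, rho = 0.886 with p = 0.0333), which dropped to 0.685 without littermate controls 1 and 3, so that it rested in part on those mice.

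Many other genes went with the same sum. Over the 14560 genes tested that are not among the 8 markers, 13.3% had an unadjusted exact permutation p below 0.05, and 6.74% had it with a positive r, against 4 of the 10 members, all positive. An r as high as that of Slc40a1 was found for 4.34% of genes, and one as high as that of Trf for 0.165%. After Benjamini-Hochberg adjustment over all these genes, 0 genes and 0 members passed, with adjusted p from the exact permutation test of 0.194 for Trf, 0.214 for Tfrc, 0.241 for Fth1 and 0.271 for Slc40a1.

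For the other 6 members the unadjusted p was 0.124 or more in the exact permutation test. Ftl1 had r = 0.155, beside its partner Fth1 at 0.955, and the difference between the correlations was not tested. Slc11a2 was lower where the markers were higher (r = -0.70, exact permutation p = 0.124). All p-values here are two-sided. The relation was looked for after the values were seen, and all points share a library, its normalization and the dissection it came from. Its part in the group comparison was not tested.

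**Figure D3:**
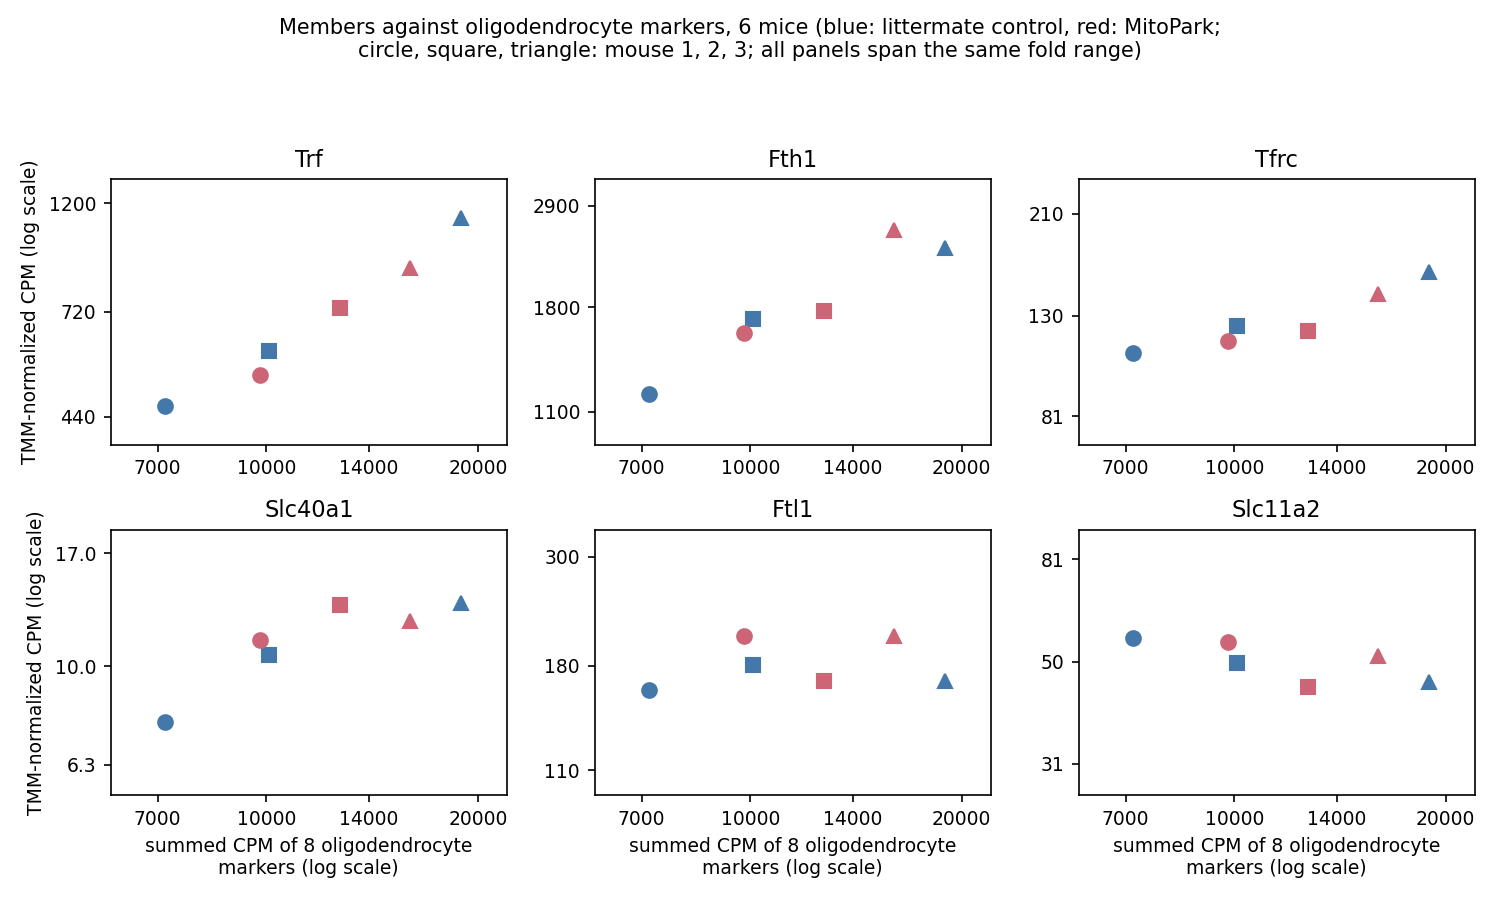
TMM-normalized CPM of 6 iron members (y axis, log scale) against the summed CPM of 8 oligodendrocyte markers (x axis, log scale) in the 6 mice, with littermate controls in blue and MitoParks in red. Trf, Fth1, Tfrc and Slc40a1 climb with the markers (r = 0.988, 0.955, 0.941 and 0.875), while Ftl1 and Slc11a2 have r = 0.155 and -0.70.

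As a share of the marker sum, Trf varied less between mice, which follows from the correlation and slope given above. Trf CPM was 6.45%, 5.94% and 5.90% of the marker sum in littermate controls 1, 2 and 3, against 5.46%, 5.78% and 5.54% in MitoParks 1, 2 and 3. All MitoParks were below all littermate controls, with means of 6.10 ± 0.304% and 5.59 ± 0.167% (SD, n = 3), and the CV in littermate controls was 4.99% for the ratio, beside 47.6% for Trf itself. The log2 difference of -0.12 had an exact permutation p of 0.1, the smallest value that 3 mice against 3 can give. It did not hold for each marker alone, since the log2 difference went from -0.18 against Mbp to 0.02 against Mal, and the groups overlapped for both of these. Fth1 against the same sum differed by 0.02 on the log2 scale between the groups.

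The markers of other cell types gave these ranges beside the members. Microglial genes summed to 174 to 228 CPM in littermate controls and 212 to 236 CPM in MitoParks, with 5 of 6 higher in MitoParks. Of these, the complement gene C1qa passed the unadjusted threshold, with 27.5, 29.3 and 32.6 CPM in littermate controls 1, 2 and 3 against 36.8, 33.6 and 42.7 CPM in MitoParks 1, 2 and 3 (unadjusted p = 0.0310, Benjamini-Hochberg adjusted p = 0.999, edgeR). Astrocyte genes summed to 3017 to 3608 CPM in littermate controls and 3209 to 3842 CPM in MitoParks, with 5 of 6 higher and 0 past the threshold. Gfap, the filament gene of astrocytes, was at a log2 fold change of 0.70 (unadjusted p = 0.0548, edgeR). The other astrocyte genes were between -0.009 (Slc1a2) and 0.26 (Aqp4). Endothelial genes summed to 173 to 269 CPM and 185 to 245 CPM. Red cell genes, which matter here because blood carries haem iron, summed to 189 to 347 CPM in littermate controls and 316 to 417 CPM in MitoParks. Of these, 6 of 7 were higher in MitoParks, with a median log2 fold change of 0.34 and 0 past the threshold. Log2 fold changes went from -0.01 for Hbb-bs and 0.02 for Hba-a2 to 0.42 for Hbb-b1 (unadjusted p = 0.0521 for Hbb-b1, edgeR). Hbb-bt and Hbb-b2 had the same counts in every mouse, so they are not separate measures. Choroid plexus genes were at 189 CPM in littermate control 2 and between 27.8 and 63.7 CPM in the other mice, and all 4 general neuronal genes were lower in MitoParks and 0 passed an unadjusted threshold of 0.05 in the quasi-likelihood test of edgeR. Their part in the values of the members was not tested.

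Beyond the 10 members, 69 further genes of iron biology in 4 lists were examined, of which 60 passed the filter on low counts. The quasi-likelihood test of edgeR put 0 of these 60 below an unadjusted p of 0.05, against 1.11% of all genes tested, and the Wald test of DESeq2 and limma-voom did the same. Of the 60 genes, 22 were higher and 38 lower in MitoParks, with log2 fold changes from -0.48 to 0.38 and a median of -0.018. For 3 of the 60 genes the groups were apart, against 4.71% of all genes tested.

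Among 11 tested genes of uptake, release and trafficking, 3 were higher and 8 lower, with a median log2 fold change of -0.04. Exoc6, part of the exocyst complex and needed for transferrin cycling in red cell precursors, was measured at 20.2, 20.3 and 21.8 CPM in littermate controls 1, 2 and 3, against 19.4, 18.6 and 13.6 CPM in MitoParks 1, 2 and 3 (log2 fold change -0.27, unadjusted p = 0.112, edgeR's quasi-likelihood test). Each MitoPark was below each littermate control, with MitoPark 3 well below the rest. Slc39a14, a metal importer that also takes up iron not bound to transferrin, had a log2 fold change of -0.14 (unadjusted p = 0.326).

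Among 9 tested genes of storage, chaperones and regulation, 3 were higher and 6 lower, with a median of -0.006. The 2 genes named by the smallest p-values were hemojuvelin, a co-receptor that regulates hepcidin and is listed as Hfe2 (log2 fold change 0.34, unadjusted p = 0.322, from 13 to 20 counts a mouse), and Pcbp2, an iron chaperone (log2 fold change 0.08, unadjusted p = 0.470). The gene of hepcidin itself, Hamp, was below the filter, as were Hamp2, Tmprss6 and Ftmt, the gene of mitochondrial ferritin, which had 0 counts in all 6 mice.

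All 19 listed genes of mitochondrial iron and iron-sulfur clusters were tested, and 6 were higher and 13 lower, with a median of -0.05. Cisd1, which encodes the outer membrane iron-sulfur protein mitoNEET, was measured at 63.5, 69.2 and 63.4 CPM in littermate controls 1, 2 and 3, against 61.7, 59.3 and 57.0 CPM in MitoParks 1, 2 and 3. The groups did not overlap, by a gap that was small beside the spread (log2 fold change -0.14, unadjusted p = 0.204, edgeR's quasi-likelihood test). Isca1, which helps assemble iron-sulfur clusters, had a log2 fold change of -0.15 (unadjusted p = 0.266).

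Genes of haem synthesis, transport and breakdown were split evenly, with 10 higher and 11 lower among 21 tested and a median of -0.01. Hmox1, the inducible haem oxygenase that frees iron from haem, had the smallest p-value of the 60 genes. It was measured at 5.23, 5.03 and 5.67 CPM in littermate controls 1, 2 and 3, against 4.02, 4.35 and 3.06 CPM in MitoParks 1, 2 and 3, from 27 to 58 counts a mouse. Every MitoPark was below every littermate control (exact permutation test, p = 0.1). The log2 fold change of -0.48 (standard error 0.23) had a 95% interval from -0.99 to 0.04 and an unadjusted p of 0.0674, which did not pass the threshold (edgeR's quasi-likelihood test). Cd163, the macrophage receptor for haemoglobin bound to haptoglobin, was at a log2 fold change of 0.38 with 17 to 31 counts a mouse (unadjusted p = 0.240).

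**Figure D4:**
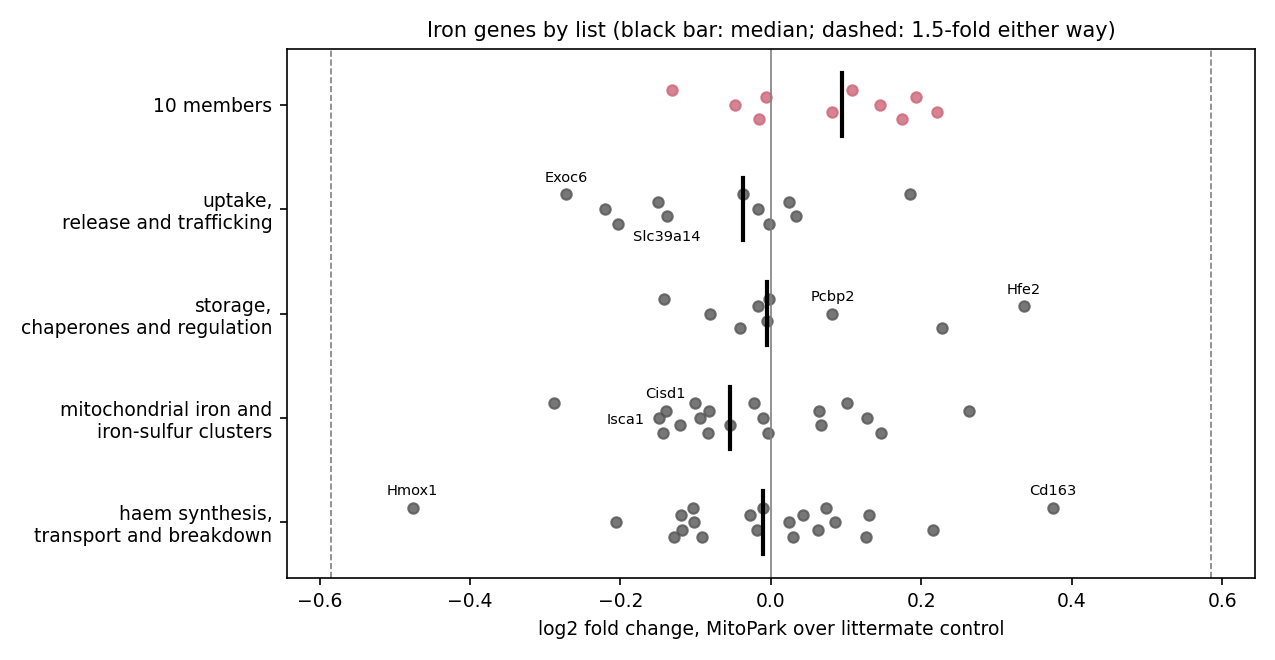
Log2 fold change, MitoPark over littermate control (x axis), of the 10 iron members (red) and of the 60 other iron genes tested, by list (grey), with black bars for medians and dashed lines at a 1.5-fold change. All genes lie between the dashed lines, with Hmox1 at -0.48 and Cd163 at 0.38 the farthest out.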

How the data were processed

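Poly-A, strand-specific libraries from the SN of 6 mice were sequenced with single-end reads. With Bowtie2 2.1.0 the authors aligned reads to a UCSC transcript set, estimated expected counts per gene with RSEM 1.2.15, and deposited these expected counts for 24054 genes without normalization. The submitters' processing notes list hg38, a human build, for these mouse samples, so the build behind the counts is unclear, and coordinates here are those of GENCODE M21 on GRCm38. Totals were 8140780 to 10528600 per mouse, 11.9% to 14.1% of the values were not whole, and 0 columns belonged to no sample. RSEM shares reads among similar transcripts. In GENCODE, Ftl1 had 7 near copies and Fth1, Trf and Slc25a37 had 1 each (90% identity over 150 bases or more, BLAST 2.17.0), of which 0 were in the count table, so reads of a copy may count for the member.

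The counts were rounded, genes whose mean CPM exceeded 1 in either group entered the fit, and groups were compared after TMM normalization by edgeR 4.0.16 (R 4.3.3, quasi-likelihood test), as the study's methods name edgeR, these cutoffs and this filter. Calls needed a fold change above 1.5 and p below 0.05, unadjusted. Benjamini-Hochberg adjustment was over all 14568 genes tested. Groups came from the sample labels. Ratios were tested by exact permutation on log2(CPM + 0.1), and relations to marker sums by exact permutation over the 6 mice. Lengths and UTRs came from 1 principal transcript a gene. Within groups, the chi-square per degree of freedom between mice was 10.2 or more, above sampling noise for every pair. Named were all members, and in each list the 2 tested genes with the smallest p and any below 0.05. Members and lists were chosen with earlier results of these data known. Some listed genes are not reported here by name. Hjv, Flvcr1 and Flvcr2 were found in the table as Hfe2, Mfsd7b and Mfsd7c. Alternatives were DESeq2 1.42.0, limma-voom 3.58.1, other normalizations and filters, unrounded counts, a replicate block, a term for Xist (added after the data were seen) and each mouse left out.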

Additional observations from a re-analysis of the deposited data

How the results depend on the processing

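The iron members gave 0 calls under each of the 16 alternatives, and 0 adjusted p below 0.05. Of the 160 log2 fold changes of members under these alternatives, 144 kept their direction and side of the threshold, 1 passed it and 15 changed sign without passing it. Aco1, Cp, Ftl1, Ireb2 and Slc40a1 kept their sign under every alternative. With all 6 mice, Trf became 0.0064 with total count scaling, 0.056 with limma-voom, 0.056 with the replicate block and 0.038 with the Xist term, and Slc11a2 became 0.0067 with total count scaling. With 1 mouse left out, log2 fold changes ranged from -0.064 to 0.45 for Fth1, from -0.16 to 0.12 for Tfrc, from -0.25 to 0.44 for Trf, from -0.076 to 0.082 for Slc11a2 and from -0.022 to 0.21 for Slc25a37, and the ratio of Fth1 to Ftl1 from -0.20 to 0.27. The number of members with an unadjusted p below 0.05 was 0 to 1 (Ftl1, without MitoPark 2). For the other iron genes it was also 0 to 1 with 1 mouse left out (without MitoPark 2), a setting in which 657 of 14634 genes passed. Without the filter, 1 other iron gene was called and 1 had an unadjusted p below 0.05, in both cases Lcn2, with 13 counts in littermate control 1 and 0 in the other mice.

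Whether the replicate numbers pair the mice was not settled. Same-numbered mice deviated together with r = 0.307, -0.074 and 0.244, and 4 of 6 mice correlated best with their own number. With the replicate block, the quasi-likelihood test of edgeR put 0 members and 0 other iron genes below an unadjusted p of 0.05. Over all genes, 323 were below it with the block, against 161 without it, and 126 were called, against 84. With the block, the ratios had exact paired p-values of 1 (Fth1 to Ftl1) and 0.25 (Tfrc to Fth1), the smallest that 3 pairs allow. Calls over all genes ranged from 62 to 219 with 1 mouse left out, and were 176 without the filter. Depth limits Slc40a1, Hmox1, Hfe2 and Cd163, with 13 to 138 counts a mouse. The cause of these changes was not tested.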
